A study of Mus musculus with 39 samples.

Results

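The miR-200 family, miR-203 and miR-375 are miRNAs best known from epithelia and glands, and their levels were followed here in small RNA libraries from mouse heart, a tissue made mostly of muscle. The members were the features of the count files whose names begin with Mir200a, Mir200b, Mir200c, Mir141, Mir429, Mir203 or Mir375, on either arm and on either strand, and they came to 16 of the 1684 features of the series. Of these, 12 were deposited as sense and 4 as antisense, and 14 were listed in all 39 libraries. Together they held 57376 counts. All libraries were made from FVB/NJ mice, an inbred strain, and the labels name no treatment, transgene or mutation. Females gave 16 libraries, 6 of them at 6 weeks of age, 3 at 7 weeks, 2 at 8 weeks and 5 at 9 weeks. Males gave 23, with 2 at 4 weeks, 3 at 5 weeks, 12 at 6 weeks, 1 at 7 weeks, 4 at 8 weeks and 1 at 16 weeks. The tissue tag names the whole heart, whereas the extraction protocol names frozen ventricular apexes, so the cells that entered each library are not fully fixed by the labels. No label says that the libraries came from different animals, and p-values then measure only the spread between these libraries, which may be technical.

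A miRNA is cut from a hairpin RNA, and the base-pairing of its seed, bases 2 to 8 from the 5′ end, largely sets which messenger RNAs it represses. The miR-200 family is made from a pair of gene clusters, one holding miR-200b, miR-200a and miR-429 and the other holding miR-200c and miR-141. Its members repress ZEB1 and ZEB2, transcription factors that turn off E-cadherin, and ZEB1 and ZEB2 in turn repress both clusters. miR-203 is abundant in the epidermis, where it represses p63 as keratinocytes leave the basal layer. miR-375 is abundant in pancreatic islets, where it limits insulin secretion in mouse cells, and in other neuroendocrine cells and gut epithelium.

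The mature sequences are shown because the family divides by a single base of the seed, and because near-identical members can exchange reads when they are counted. They are RefSeq sequences on GRCm38.p6, written 5′ to 3′ with the seed in capitals.
miR-200b-3p: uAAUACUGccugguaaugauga
miR-429-3p: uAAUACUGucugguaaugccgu
miR-200c-3p: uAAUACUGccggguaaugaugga
miR-200a-3p: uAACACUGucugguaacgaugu
miR-141-3p: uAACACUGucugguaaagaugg
miR-203-3p: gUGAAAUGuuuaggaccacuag
For miR-375 the hairpin is printed, with the bases of the deposited 3p window in capitals, which are 22 bases long and here do not mark the seed.
miR-375 hairpin: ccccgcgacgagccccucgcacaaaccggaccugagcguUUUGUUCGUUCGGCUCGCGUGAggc

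With positions counted from 1 at the 5′ end of the first-named miRNA, miR-200b-3p and miR-200a-3p differed by U4C, C9U, U17C and A22U, so that the seed change is U4C. The closest relatives lie in different clusters. miR-200a-3p and miR-141-3p shared 20 of 22 bases and differed by C17A and U22G, and miR-200b-3p and miR-200c-3p shared 20 of the first 22 bases and differed by U11G and A22G. The seed AAUACUG is carried by miR-200b, miR-200c and miR-429, and the seed AACACUG by miR-200a and miR-141. Whether reads with a mismatch were counted at a relative is not given in the sources used here, and an exchange of reads between miR-200a and miR-141 or between miR-200b and miR-200c was not tested.

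In the coordinates of the files (GRCm38), the miR-200b-3p window lies at chr4:156055684-156055706, miR-200a-3p at chr4:156054911-156054932 and miR-429-3p at chr4:156053916-156053937, all on the minus strand. GENCODE places these 3 within the protein-coding gene Ttll10, outside its exons, and within the noncoding transcript Gm13648, in an exon of which miR-429 lies. The miR-200c-3p window lies at chr6:124718324-124718346 and miR-141-3p at chr6:124717917-124717938, both on the minus strand and within Gm15884, an antisense RNA gene. Of this pair, miR-141 also lies in an exon of Gm29008, a gene model to be checked by experiment, and the nearest flanking genes are Phb2 and Ptpn6. miR-203-3p lies at chr12:112130927-112130948 on the plus strand, between Aspg at 3330 bp and Kif26a at 15260 bp. miR-375-3p lies at chr1:74900661-74900682 on the minus strand, between Cryba2 at 7518 bp and Cfap65 at 1389 bp, and overlaps no other annotated gene.

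Nearly all counts came from the 3p arms. The 3p sense arm held 99.5% of the counts of miR-203 (Wilson 95% interval 99.4% to 99.5%), 99.4% of those of miR-141 and of miR-200b, 99.5% of those of miR-200c and 94.2% of those of miR-200a (92.3% to 95.7%). Every count of miR-429 (725) and of miR-375 (425) was on the 3p arm. The other 9 features held 345 counts in all, between 1 and 162 each over the 39 libraries, and none passed 15 counts or 1.39 CPM (the count scaled to the total of its file) in any library. The largest of them was miR-203-5p with 162 counts, followed by miR-203-5p antisense with 70 and miR-141-5p with 54. Antisense features numbered 4, with 70 counts for miR-203-5p, 16 for miR-200a-5p, 3 for miR-200a-3p and 1 for miR-141-5p. The deposited windows of miR-200b-5p and miR-200c-5p shared 14 and 18 bases with the 22-base RefSeq arms, and their totals of 10 and 5 counts may miss reads of those arms for this reason, which was not tested. The 3p arms stand for the 7 miRNAs from here on.

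Libraries held 1788245 to 14563754 counts (median 8410768), so that 3 counts, the limit that a count of 0 allows, correspond to 0.206 to 1.68 CPM. The shallowest library, the female library of 8 weeks replicate 2, had 1788245 counts, and the next had 3970178. Heart muscle miRNAs (miR-1a, miR-133a, miR-208a, miR-208b and miR-499) summed to between 55800 and 161200 CPM in every library. Ligation and amplification favour some sequences, so levels of different miRNAs are read counts on the CPM scale and not numbers of molecules. In bulk tissue, fewer cells of a type and less RNA per cell cannot be told apart. Because the labels give no batch, the libraries were put into 7 library sets by the way their counts were divided between 10 pairs of loci that encode the same mature miRNA. No member of the epithelial group takes part in this division, and whether it reflects processing or the samples was not tested. Sex and age are unevenly spread over these sets. All male libraries of 4 and 5 weeks are in set 1, all female libraries of 9 weeks in set 6, and the male libraries of 6 weeks in sets 2, 3, 4 and 6. In 4 libraries a single feature took over 40% of counts, which lowers the CPM of all others.

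miR-203 was by far the most abundant of the group, miR-141 came next, and the other 5 arms averaged between 1.48 and 5.09 CPM. Mean levels over the 39 libraries were 131 CPM for miR-203-3p, 28.4 CPM for miR-141-3p, 5.09 CPM for miR-200b-3p, 3.12 CPM for miR-200c-3p, 2.27 CPM for miR-429-3p, 2.23 CPM for miR-200a-3p and 1.48 CPM for miR-375-3p. In the order of mean level over all 1684 features, miR-203-3p ranked 133, miR-141-3p 215 and miR-375-3p 421. miR-203-3p exceeded miR-141-3p in 39 of 39 libraries, and miR-141-3p exceeded miR-200b-3p in 38 of 39. Below that the order was not fixed. miR-200b-3p exceeded miR-200c-3p in 27 libraries, miR-200c-3p exceeded miR-429-3p in 25, miR-429-3p exceeded miR-200a-3p in 17, and miR-200a-3p exceeded miR-375-3p in 27. These neighbours lay within each other's spread. Summed by seed, AACACUG (miR-200a and miR-141) reached a median of 29.0 CPM and AAUACUG (miR-200b, miR-200c and miR-429) a median of 8.50 CPM, so most family counts in a typical library carried the seed of miR-141.

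**Figure D1:**
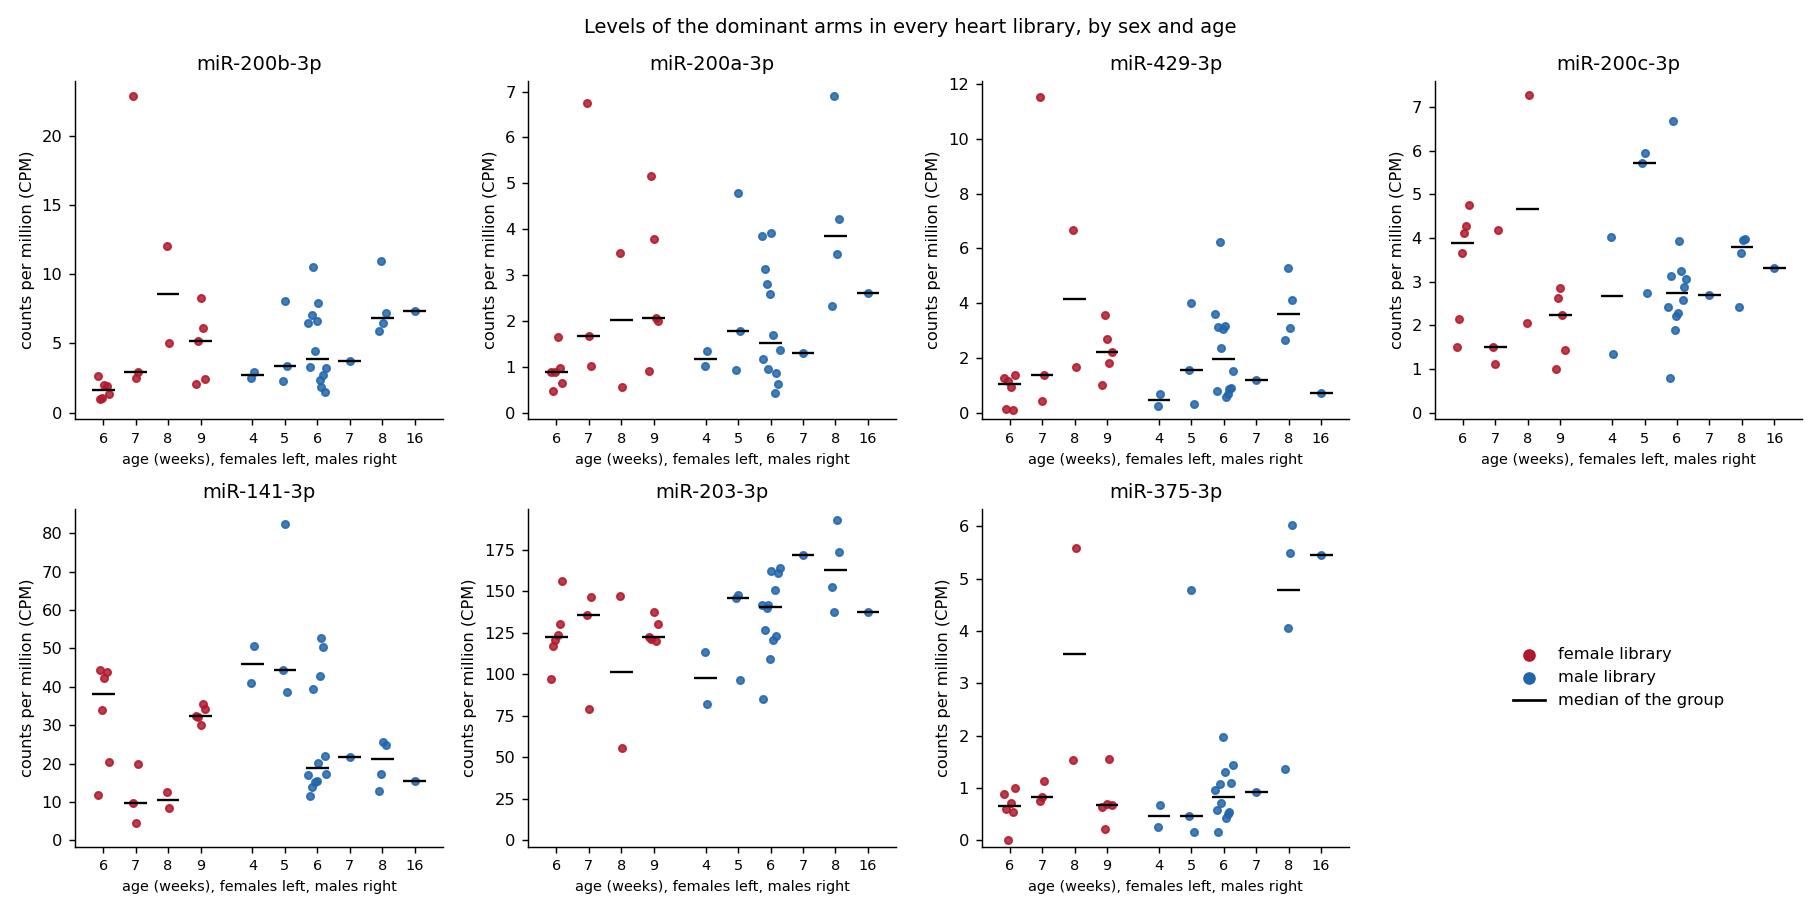
Level of each 3p arm in CPM (linear axes, a panel per arm) in every library, with female libraries in red at the left and male libraries in blue at the right, by age in weeks; black bars are group medians. miR-203-3p stays between 55.4 and 193 CPM, miR-141-3p falls into separate ranges within single groups such as males of 6 weeks, and a female library of 7 weeks stands above all others for miR-200b-3p and miR-429-3p.

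miR-203-3p, the epidermal miRNA, was the steadiest of the 7. Across groups its medians were 122, 136, 101 and 122 CPM in females of 6, 7, 8 and 9 weeks, and 97.8, 146, 140.8, 172, 163 and 138 CPM in males of 4, 5, 6, 7, 8 and 16 weeks. Its levels in female libraries of 6 weeks ran from 97.4 to 156 CPM with a median of 122 CPM, and in male libraries of 6 weeks from 85.4 to 164 CPM with a median of 140.8 CPM. The ranges overlapped almost fully. The coefficient of variation at 6 weeks was 15.5% in females and 17.5% in males, against 42.1% and 57.7% for miR-141-3p. The lowest value of the series, 55.4 CPM (Wilson 95% interval 45.5 to 67.4), belonged to the shallowest library, and the 4 libraries in which a single feature took over 40% of counts (female libraries of 6 weeks replicate 1 and 7 weeks replicate 2, male libraries of 6 weeks replicates 2 and 6) had 97.4, 78.9, 85.4 and 109.3 CPM. Of the variance of miR-203-3p on the log2 scale, 8.53% lay between library sets, against a median of 45.9% over the 322 features that averaged at least 5 CPM. The 3 arms whose levels were most like those of miR-203-3p over the 39 libraries, out of 319 candidates, were miR-181a-1-3p (Spearman's rho 0.81), let-7c-2-5p (0.81) and miR-30a-3p (0.80). All 319 candidates share the depth and composition of these libraries, and why these 3 were most alike was not tested.

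The chromosome 4 cluster was low but its 3 members moved together from library to library. miR-200b-3p ran from 0.951 to 22.9 CPM, miR-200a-3p from 0.417 to 6.91 CPM and miR-429-3p from 0.0889 to 11.5 CPM. The female library of 7 weeks replicate 1 had 22.9 CPM of miR-200b-3p (Wilson 95% interval 20.2 to 26.0), 6.76 CPM of miR-200a-3p and 11.5 CPM of miR-429-3p (9.68 to 13.8). The other female libraries of 7 weeks had 2.49 and 2.95 CPM of miR-200b-3p. The female library of 8 weeks replicate 1, which is in the same library set, was next for miR-200b-3p with 12.1 CPM and for miR-429-3p with 6.66 CPM. In the same libraries the other cluster was low, with 9.67 and 12.5 CPM of miR-141-3p and 1.502 and 2.05 CPM of miR-200c-3p. All 4 libraries of their set were low in it, with 4.57 to 12.97 CPM of miR-141-3p and 1.107 to 2.425 CPM of miR-200c-3p. The lowest of both belonged to the female library of 7 weeks replicate 2, which had only 2.49 CPM of miR-200b-3p. Within the cluster, miR-200b-3p took 52.9% of pooled counts (51.1% to 54.7%), miR-429-3p 23.9% (22.4% to 25.5%) and miR-200a-3p 23.1% (21.7% to 24.7%). The division varied somewhat beyond counting error, with chi-square values per degree of freedom of 1.44, 1.84 and 1.83 over the 39 libraries.

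The pairwise relation of the 7 arms was measured over the 39 libraries as a correlation of log2(CPM + 1), with a two-sided permutation test and Benjamini-Hochberg adjustment over the 21 pairs. miR-200b-3p and miR-200a-3p had r = 0.85 and rho = 0.83, with a permutation p of 1e-05 for each, the smallest that 100000 resamples can give, and adjusted p of 7e-05 and 0.000105. miR-200b-3p and miR-429-3p had r = 0.85 and rho = 0.77, with the same p values. miR-200a-3p and miR-429-3p had r = 0.78 and rho = 0.71, with permutation p of 1e-05 and 2e-05 and adjusted p of 7e-05 and 0.00014. Without the 2 libraries farthest from the median of the first-named arm, r was 0.83, 0.79 and 0.72. Within the 12 male libraries of 6 weeks r was 0.87, 0.94 and 0.78, and taken as deviations from the mean of the library set it was 0.79, 0.78 and 0.72. All of these values of r had an adjusted permutation p under 0.05. Within each of the 4 library sets of 6 to 8 libraries, r ran from 0.27 to 0.98, from -0.33 to 0.88 and from 0.01 to 0.93 for the 3 pairs, and the lowest values all came from set 3, whose libraries had at most 2.68 CPM of miR-200b-3p.

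In the chromosome 6 cluster the relation was weaker in size and was not called. miR-200c-3p and miR-141-3p had r = 0.34 and rho = 0.33 over the 39 libraries, with permutation p of 0.034 and 0.0415 and adjusted p of 0.0889 and 0.0687. The value was 0.44 without the 2 farthest libraries (adjusted permutation p 0.0179), 0.48 as deviations from the mean of the sex and age group (0.0332), 0.62 within the male libraries of 6 weeks (0.106) and 0.21 as deviations from the mean of the library set (0.223). Within single sets it ran from -0.52 to 0.67. In no library did miR-200c-3p pass miR-141-3p, and miR-141-3p was between 1.15 and 38 times as high, with a median of 8 times. miR-200c-3p took 9.34% of the pooled counts of the cluster (8.79% to 9.93%), and between 2.56% in the male library of 4 weeks replicate 2 and 46.4% in the shallow female library of 8 weeks replicate 2. This division varied far beyond counting error, with a chi-square per degree of freedom of 7.04. That value rests on 10126 pooled counts, against 3029 for the chromosome 4 cluster. Because it grows with the number of counts, it does not compare the clusters on one scale. By library set the median share of miR-200c-3p ran from 6.68% in set 1 to 17.5% in set 7.

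Between the clusters, 1 of the 6 pairs was called by rank and none by r. Over these pairs r ran from -0.33 to 0.08, and none had an adjusted permutation p under 0.05 for r. miR-200b-3p and miR-141-3p had r = -0.33 and rho = -0.40, with permutation p of 0.0423 and 0.0131 and adjusted p of 0.0889 and 0.0333, so that libraries with more miR-200b-3p ranked lower in miR-141-3p. This rank relation was also called with a pseudocount of 0.5 (rho = -0.40, adjusted permutation p 0.0321) and with CPM scaled by TMM factors (rho = -0.43, 0.0302). It was not called without the 2 farthest libraries (rho = -0.33, 0.0948) or as deviations from the mean of the sex and age group (rho = -0.10, 0.857). Its sign turned as deviations from the mean of the library set (rho = 0.28, 0.182). With TMM factors miR-429-3p and miR-141-3p were called by rank as well (rho = -0.38, 0.0454). miR-200b-3p and miR-200c-3p, which share a seed and 20 bases, had r = 0.03 and rho = -0.02, with permutation p of 0.844 and 0.89. As deviations from the mean of the library set, r for the 6 pairs ran from 0.14 to 0.51 and 2 were called by r, and with CPM also scaled by TMM factors, an alternative chosen after seeing the data, it ran from -0.002 to 0.31 and none was called.

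**Figure D2:**
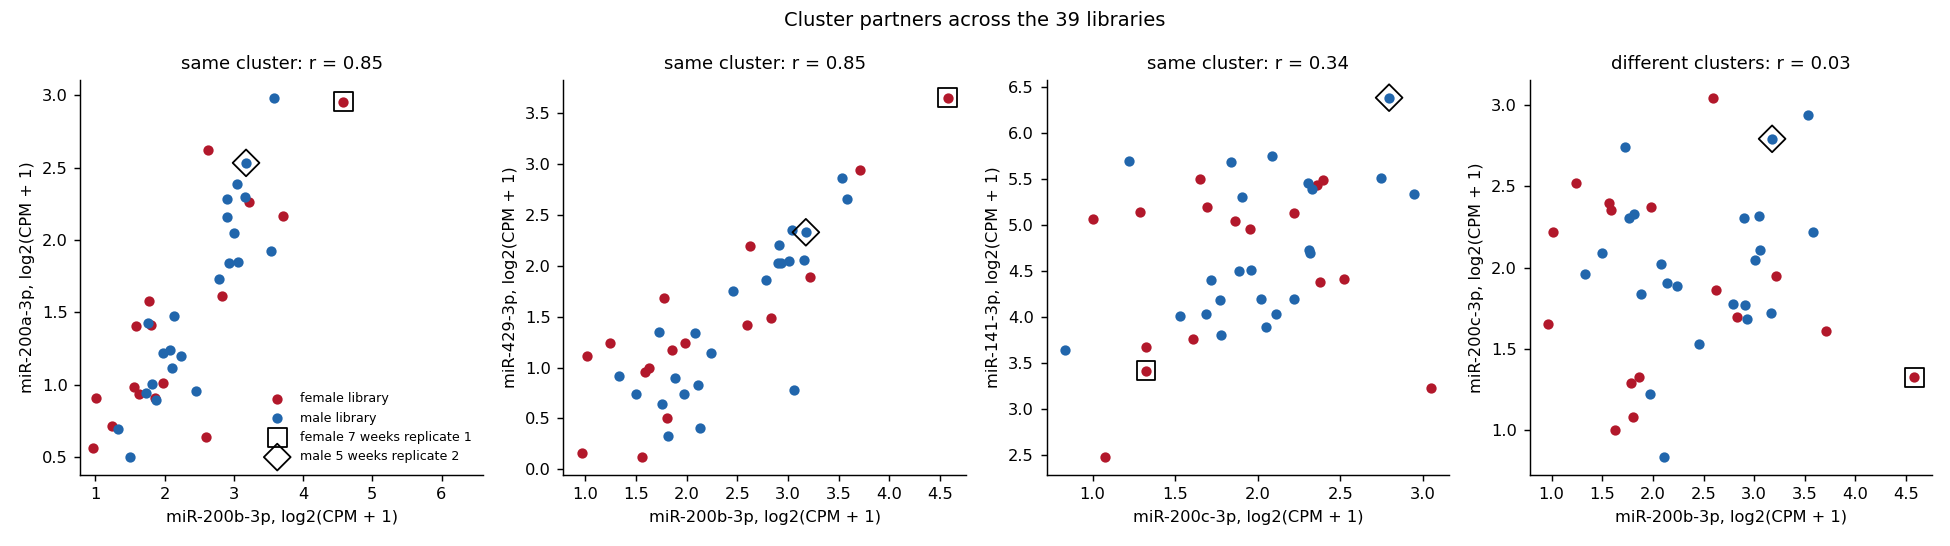
Levels of pairs of arms as log2(CPM + 1), a point per library (red female, blue male), with the female library of 7 weeks replicate 1 in a square and the male library of 5 weeks replicate 2 in a diamond. The members of the chromosome 4 cluster lie along a line (r = 0.85 for both pairs with miR-200b-3p), miR-200c-3p and miR-141-3p scatter widely (r = 0.34), and miR-200b-3p shows no slope against miR-200c-3p (r = 0.03).

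miR-141-3p took separate levels in different library sets. Between the sets lay 83.4% of its variance on the log2 scale, the highest share among the 7 arms, against 45.9% for the median feature. Its median was 44.4 CPM in set 1, 14.4 in set 2, 43.4 in set 3, 19.99 in set 4, 11.1 in set 5, 33.3 in set 6 and 17.3 in set 7. The split was visible among libraries of the same sex and age. The male libraries of 6 weeks had 11.5 to 17.1 CPM in set 2 (4 libraries) and 15.3 to 21.8 CPM in set 4 (4 libraries), but 42.9 to 52.6 CPM in set 3 (3 libraries) and 39.5 CPM in set 6 (1 library). The female libraries of 6 weeks had 11.8 and 20.3 CPM in set 4, 34.0 to 44.0 CPM in set 3 and 44.4 CPM in set 1. Neither sex had a library of 6 weeks between 21.8 and 34.0 CPM. Which property of sets 1, 3 and 6 moves with the higher level was not tested. The arms most like miR-141-3p over the 39 libraries were miR-379-5p (rho 0.90), miR-3082-3p (0.85) and miR-148b-3p (0.83), which had 73.6%, 75.7% and 63.9% of their own variance between the library sets.

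**Figure D3:**
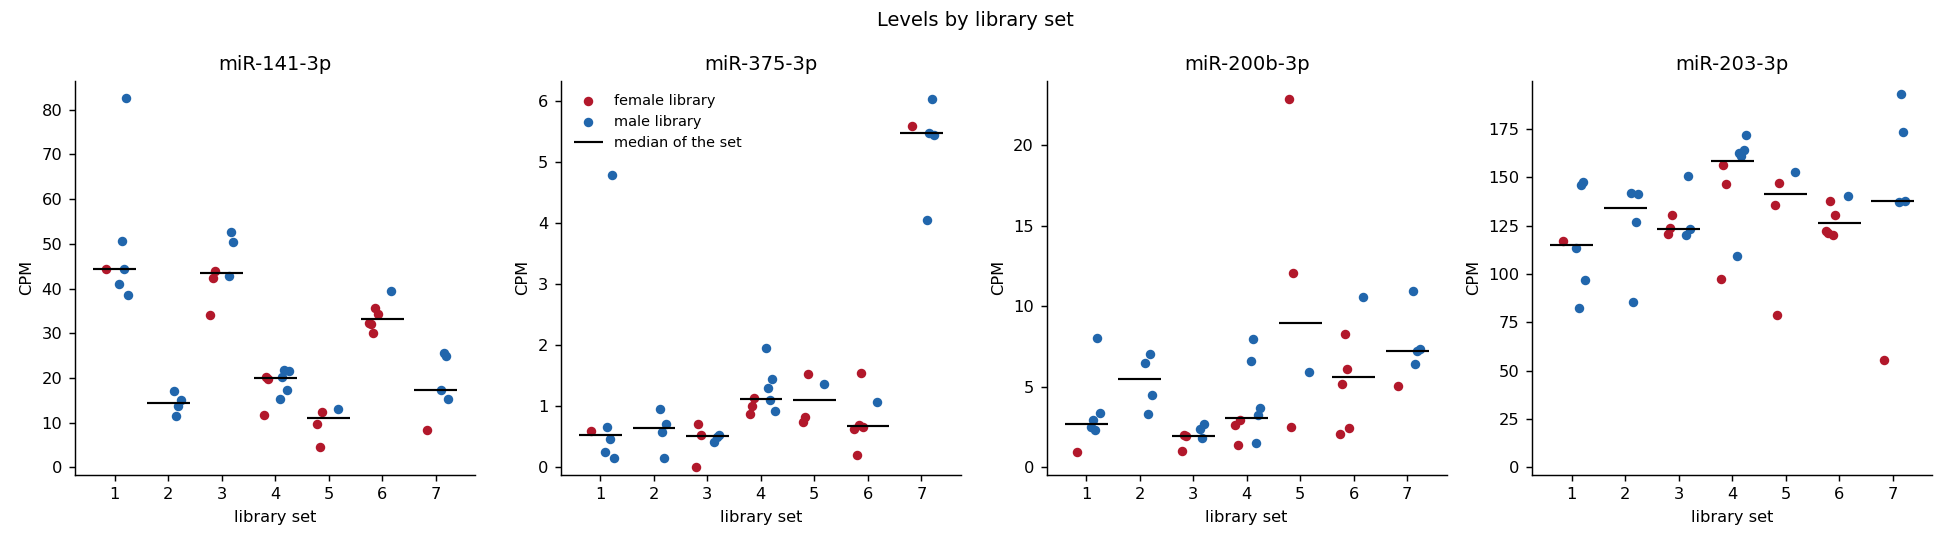
Levels of 4 arms in CPM by library set (linear axes), a point per library (red female at the left of each set, blue male at the right) with the set median as a black bar. miR-141-3p is high in sets 1, 3 and 6, miR-375-3p is high in set 7 and in a single male library of set 1, and miR-203-3p shows no such steps.

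miR-375-3p, the islet and neuroendocrine miRNA, was under 2 CPM in most libraries and above 4 CPM in 6. The 5 libraries of set 7, which are 3 male libraries of 8 weeks, the male library of 16 weeks and the female library of 8 weeks replicate 2, had 4.06 to 6.03 CPM. The male library of 5 weeks replicate 2 had 4.79 CPM (25 counts, 3.24 to 7.07). The other 33 libraries had at most 1.97 CPM. In the female library of 6 weeks replicate 3 the count was 0 of 6842104, which allows a level of up to 0.438 CPM. Between the sets lay 73.7% of its variance. The male library of 8 weeks that is not in set 7 had 1.37 CPM, so that males of 8 weeks divided by set. miRNAs of the exocrine pancreas were at the floor throughout. miR-216a, miR-216b and miR-217 had 8, 16 and 26 counts over all 39 libraries and at most 0.355 CPM in any of them. miR-200b-3p and miR-375-3p had r = 0.47 and rho = 0.53, with permutation p of 0.00276 and 0.00066 and adjusted p of 0.0145 and 0.00346. The relation was not called as deviations from the mean of the sex and age group (r = 0.20, adjusted permutation p 0.69) or of the library set (r = 0.37, 0.095).

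In contrast, miR-141-3p and miR-203-3p had r = 0.23 and rho = 0.01 over all libraries, with permutation p of 0.155 and 0.931 and adjusted p of 0.251 and 0.931, but r = 0.84 as deviations from the mean of the library set, with an adjusted permutation p of 0.000105. With TMM scaling as well, r was 0.67 (adjusted permutation p 0.00231). Without the shallowest library and the 4 libraries in which 1 arm took over 40% of counts, it was 0.57 (0.0773). Both of these settings were chosen after seeing the data. For miR-141-3p and miR-375-3p the sign of r turned. Over all libraries r was -0.22 and rho -0.39 (adjusted permutation p 0.259 and 0.0333). Without the 2 libraries farthest from the median of miR-141-3p, r was -0.42 (0.0192). As deviations from the mean of the library set r was 0.49 (0.0156). With TMM scaling as well r was 0.49 (0.0821), and without the shallowest library and those 4 libraries it was 0.77 (0.001155).

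**Figure D4:**
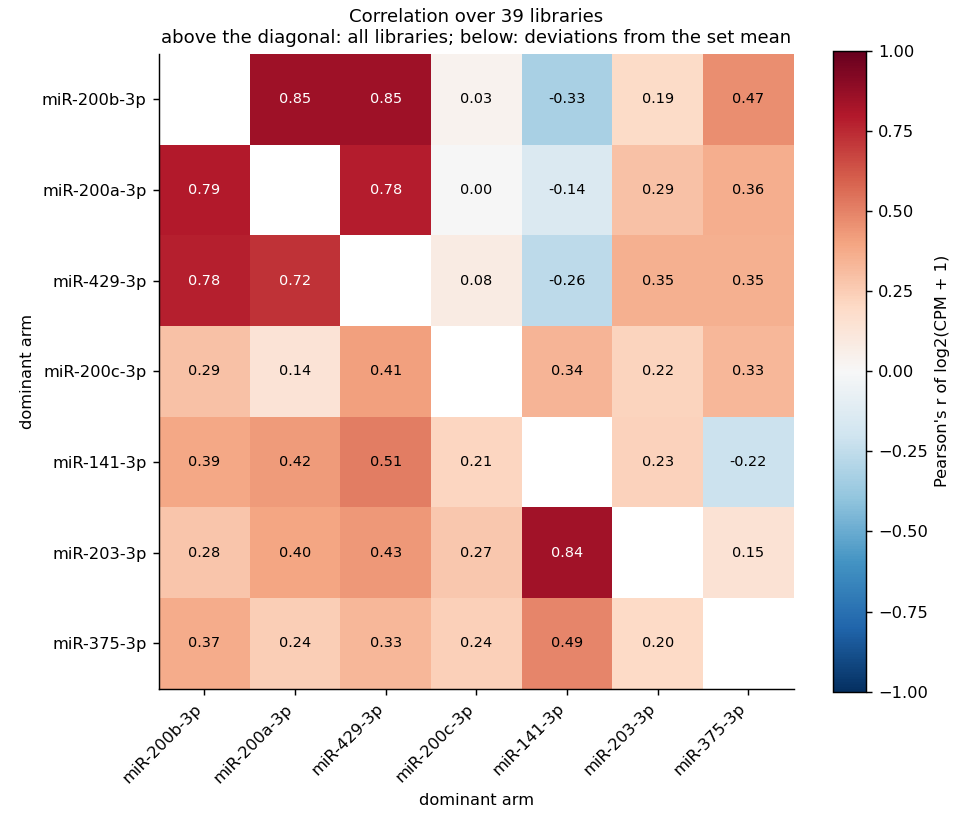
Pearson's r between the 7 arms over 39 libraries, as log2(CPM + 1), above the diagonal for the libraries as they stand and below it for deviations from the mean of the library set. The block of miR-200b-3p, miR-200a-3p and miR-429-3p is dark on both sides (0.72 to 0.85), and the pair of miR-141-3p and miR-203-3p reads 0.23 above and 0.84 below.

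A single male library was high in several epithelial miRNAs at once. The male library of 5 weeks replicate 2 was the highest of all 39 in miR-141-3p, with 82.5 CPM (75.1 to 90.7), where the next library had 52.6 CPM. It held place 3 in miR-200c-3p (5.94 CPM), where another library of its set had 5.71 CPM. It also held place 4 in miR-200a-3p (4.79 CPM) and place 6 in both miR-200b-3p (8.04 CPM) and miR-429-3p (4.02 CPM). The other libraries of its set had at most 1.78 CPM of miR-200a-3p, 3.39 CPM of miR-200b-3p and 1.54 CPM of miR-429-3p. Among epithelial miRNAs outside the group it was also the highest of 39 in miR-205, a miRNA of stratified epithelia, with 11.1 CPM where the other libraries had between 0 and 2.25 CPM and a median of 0.261 CPM. It was the highest in miR-182 (36.2 CPM, next 25.1 CPM) and miR-183 (15.9 CPM, next 11.3 CPM), cluster partners known from sensory epithelia. The other libraries of its set were also high in miR-183, with a median of 9.04 CPM against 2.94 CPM over all other libraries. This male library did not stand out in miR-203-3p (148 CPM, place 10), miR-31 (38.7 CPM, place 21), miR-192 (2020 CPM, place 11) or the airway miRNA miR-34c (39.5 CPM, place 19). Nor did it in miR-215 (137.7 CPM, place 14). Its miR-96 level was 0.192 CPM (place 19), below the 0.574 CPM that 3 counts make in this library. Only 61 counts of miR-96 were found over the 39 libraries, so its place cannot show whether it rose. The female library of 7 weeks replicate 1, highest for the chromosome 4 cluster, had 0.282 CPM of miR-205 and 2.25 CPM of miR-183. The medians of the other libraries were 0.261 and 4.04 CPM, and its places were 19 and 24. This female library held place 17 in miR-182 and 34 in miR-192. Its place in miR-96 was 20, with 0.188 CPM, again below its level for 3 counts (0.282 CPM). It ranked higher in miR-31 (71.0 CPM, place 3), miR-215 (168.4 CPM, place 4) and miR-34c (46.1 CPM, place 7). All other libraries had medians of 39.75, 127.5 and 38.1 CPM of these, and the others of its set 60.8, 151.9 and 41.4 CPM. Which tissue the RNA of these libraries came from was not tested.

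Females and males were compared at 6 weeks, where both sexes have the most libraries. Only miR-200b-3p, miR-141-3p and miR-203-3p passed the filter of 5 CPM in 5 fitted libraries. For miR-200b-3p the libraries with 5 CPM or more were all male, and no female library passed 2.63 CPM. This arm therefore entered the test only through the sex in which it was higher, and its edgeR values carry that selection. By edgeR's quasi-likelihood test, 0 of the 339 arms tested were called at an adjusted p under 0.05 (0%), 25 had an unadjusted p under 0.05, and DESeq2 called 0 as well. None of the 3 members was called, and with no filter none of 14 member features among 1475 (0%). miR-200b-3p had 2.63, 0.951, 1.02, 2.001, 1.96 and 1.37 CPM in the 6 female libraries of 6 weeks, and 1.51 CPM at the lowest, 3.90 at the median and 10.6 at the highest in the 12 male libraries. The mean was 1.65 ± 0.65 CPM in females and 4.85 ± 2.85 CPM in males (SD, n = 6 and n = 12). The groups overlapped between 1.51 and 2.63 CPM, where 3 of the 6 female libraries lay, and the other 3 lay below the lowest male library. The fitted log2 difference, female minus male, was -1.43 ± 0.44 (SE), with an edgeR p of 0.00464 and an adjusted p of 0.478, and it ran from -1.68 to -1.30 in the 13 of 18 fits without 1 library in which the arm passed the filter. In the other fits a male library with 5 CPM or more was left out, and the arm did not pass. A two-sided exact permutation test of log2(CPM + 1) over all regroupings of the 18 libraries gave p = 0.00366, unadjusted.

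The means of the cluster partners of miR-200b were also lower in females. miR-200a-3p averaged 0.915 ± 0.403 CPM in females and 1.95 ± 1.26 CPM in males, with an exact permutation p of 0.0693, and miR-429-3p averaged 0.823 ± 0.574 and 2.24 ± 1.71 CPM in females and males, with an exact permutation p of 0.039 (SD, n = 6 and n = 12, p unadjusted). These 3 arms varied together across libraries, so they are not 3 separate observations. In set 3, where both sexes had 3 libraries of 6 weeks, miR-200b-3p had 1.02 to 2.001 CPM in females and 1.83 to 2.68 CPM in males. In set 4 it had 1.37 and 2.63 CPM in 2 females and 1.51 to 7.95 CPM in 4 males. With a term for the library set the difference was -0.79 ± 0.47 (edgeR adjusted p 0.73). The 4 male libraries of set 2 (3.31 to 7.05 CPM) had no female library of 6 weeks beside them.

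miR-141-3p averaged 32.8 ± 13.8 CPM in females and 26.5 ± 15.3 CPM in males of 6 weeks, a log2 difference of 0.33 ± 0.34 with an edgeR adjusted p of 0.601. With a term for the library set it was -0.21 ± 0.10 (adjusted p 0.449). miR-203-3p averaged 124 ± 19.2 CPM in females and 136 ± 23.8 CPM in males, a log2 difference of -0.07 ± 0.08 with an edgeR adjusted p of 0.626 and a 95% interval from -0.24 to 0.10. In a fit over ages 6, 7 and 8 weeks that took age as a factor, with 28 libraries, edgeR called 0 of 346 arms (0%), with 46 at an unadjusted p under 0.05 and 0 called by DESeq2, and with no filter 0 of 1618 features. The log2 differences, female minus male, were -0.58 ± 0.44 for miR-200b-3p, 0.02 ± 0.27 for miR-141-3p and -0.16 ± 0.08 for miR-203-3p, with edgeR adjusted p of 0.53, 0.948 and 0.379. The sign of miR-141-3p turned with a term for the library set (-0.24 ± 0.10) and with file totals alone (-0.09 ± 0.29).

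**Figure D5:**
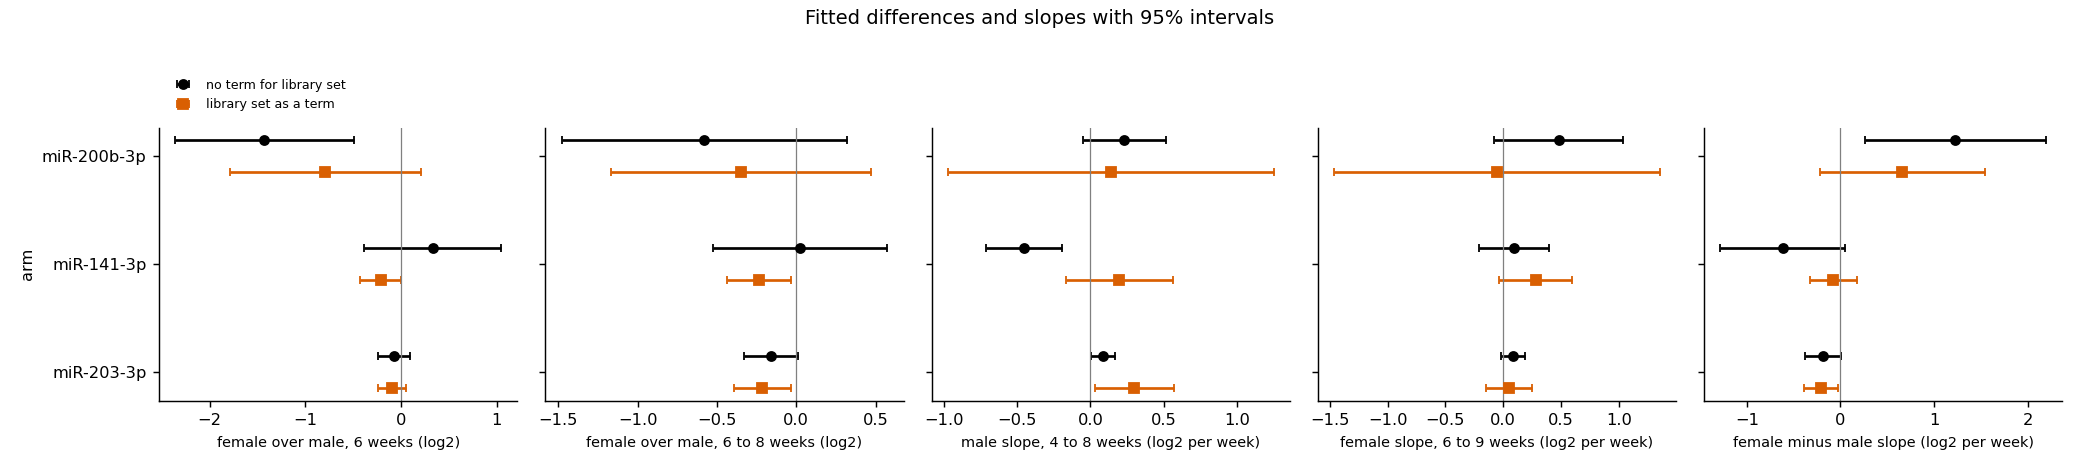
Fitted log2 differences between females and males and log2 slopes per week for the 3 arms that passed the filter, with 95% intervals, without (black circles) and with (orange squares) the library set as a term. The male slope of miR-141-3p is below 0 without the term (-0.45) and above 0 with it (0.20, interval across 0).

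The change with age in males was fitted as a weekly slope over 22 libraries of 4 to 8 weeks. By edgeR's quasi-likelihood test 121 of 346 arms (35%) were called, 47 higher with age (13.6%) and 74 lower (21.4%), and with file totals in place of TMM factors 61 were higher and 35 lower. miR-141-3p was the member called, so that 1 of the 3 members tested had a slope, a share near that of all arms. It had 41.1 and 50.6 CPM in the 2 libraries of 4 weeks, 44.4, 82.5 and 38.6 CPM at 5 weeks, a median of 18.7 CPM (11.5 to 52.6) at 6 weeks, 21.7 CPM at 7 weeks and 13.0, 17.3, 25.5 and 24.9 CPM at 8 weeks. The 8-week libraries all lay below those of 4 and 5 weeks, and the 6-week libraries spanned both. The fitted slope was -0.45 ± 0.13 log2 per week, with an edgeR adjusted p of 0.00794, and it ran from -0.49 to -0.37 with adjusted p of 0.00592 to 0.022 when each library was left out in turn. All 5 libraries of 4 and 5 weeks are in set 1. With a term for the library set the slope was 0.20 ± 0.17 (adjusted p 0.727), of the opposite sign, and no arm of the 346 was called, with 24 at an unadjusted p under 0.05. The fall of miR-141-3p with age and its level in set 1 cannot be told apart in these libraries.

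miR-200b-3p had a male slope of 0.23 ± 0.14 log2 per week (edgeR adjusted p 0.189), which ran from 0.14 to 0.31 when each library was left out. Its levels were 2.52 and 2.93 CPM at 4 weeks and 5.90, 10.97, 6.45 and 7.24 CPM at 8 weeks, with 8.04 CPM in the male library of 5 weeks replicate 2. miR-203-3p had a slope of 0.09 ± 0.04 (edgeR adjusted p 0.0883). This was called with file totals (0.16 ± 0.06, adjusted p 0.0295), by DESeq2 (0.10 ± 0.04, adjusted p 0.0329), and by edgeR without the male library of 5 weeks replicate 2 (adjusted p 0.0267). It was not called with RLE factors (edgeR adjusted p 0.0562), by limma-voom (adjusted p 0.0592) or with a term for the library set (0.30 ± 0.13, edgeR adjusted p 0.555). Its levels were 113 and 82.2 CPM at 4 weeks and 153, 137, 193 and 174 CPM at 8 weeks.

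The remaining arms could be tested only with no filter on low counts, where 15 of the 16 features had a count in males of 4 to 8 weeks and edgeR called 105 of 1541 features (6.81%), 63 higher (4.09%) and 42 lower (2.73%). Of the 15, miR-375-3p was called higher with age and miR-141-3p lower (-0.39 ± 0.11, adjusted p 0.0207). miR-200a-3p (0.35 ± 0.15), miR-429-3p (0.43 ± 0.18) and miR-200c-3p (-0.02 ± 0.11) were not called, with edgeR adjusted p of 0.183, 0.147 and 0.895. miR-375-3p had 0.252 and 0.666 CPM at 4 weeks, 0.463, 4.79 and 0.162 CPM at 5 weeks, a median of 0.836 CPM at 6 weeks, 0.929 CPM at 7 weeks and 1.37, 4.06, 5.49 and 6.03 CPM at 8 weeks, with 5.45 CPM in the single library of 16 weeks, which was not in the fit. Its slope was 0.65 ± 0.18 log2 per week (edgeR adjusted p 0.0175). The call was lost without the male library of 4 weeks replicate 2 (adjusted p 0.0596) and without replicate 2, 3 or 4 of the male libraries of 8 weeks (0.0798, 0.131 and 0.0942), and without the male library of 5 weeks replicate 2 the slope was 0.91 with an adjusted p of 0.000206. With a term for the library set it was 0.39 ± 0.45 (adjusted p 0.971). The fits without a filter that leave out a library or add the set were chosen after seeing the data.

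In females of 6 to 9 weeks edgeR called 10 of 331 arms (3.02%), 1 higher with age (0.302%) and 9 lower (2.72%), and none of the 3 members. With no filter it called 1 of 1451 features (0.0689%), which was lower with age, and none of 15 member features. The slopes were 0.48 ± 0.26 log2 per week for miR-200b-3p, 0.08 ± 0.05 for miR-203-3p and 0.09 ± 0.14 for miR-141-3p, with edgeR adjusted p of 0.322, 0.354 and 0.792. miR-200b-3p had a median of 1.66 CPM at 6 weeks, values of 22.9, 2.49 and 2.95 CPM at 7 weeks and 12.1 and 5.03 CPM at 8 weeks, and a median of 5.15 CPM (2.09 to 8.28) at 9 weeks. The libraries that reached the 5 CPM of the filter were all of 7 to 9 weeks, and none of 6 weeks passed 2.63 CPM. miR-200b-3p thus entered this fit only through older libraries, a selection that favours a slope above 0. Without the female library of 7 weeks replicate 1 it was called (adjusted p 0.0497), and the libraries then meeting the filter were all of 8 and 9 weeks. With a term for the library set the sign of its slope turned (-0.05 ± 0.65). miR-203-3p was called by DESeq2 (0.10 ± 0.03, adjusted p 0.0122) and by edgeR without the shallow female library of 8 weeks replicate 2 (adjusted p 0.0114).

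Whether the weekly slope differed between the sexes was tested over 6 to 8 weeks with a sex by age term, for which edgeR called 7 of 346 arms (2.02%), 6 higher (1.73%) and 1 lower (0.289%), and none of the members. With no filter it called 1 of 1618 features, a higher one (0.0618%), and none of 16 member features. The difference, female minus male slope, was 1.23 ± 0.47 log2 per week for miR-200b-3p (edgeR p 0.0148, adjusted p 0.125), -0.61 ± 0.33 for miR-141-3p (adjusted p 0.241) and -0.18 ± 0.09 for miR-203-3p (adjusted p 0.222). For miR-200b-3p it was 0.66 ± 0.42 with a term for the library set (edgeR adjusted p 0.239). For miR-203-3p it ran from -0.32 to -0.02 when each library was left out. It was -0.32, and called, without the female library of 8 weeks replicate 1. That fit kept only the shallowest library, with the lowest miR-203-3p of the series (55.4 CPM), for females of 8 weeks.

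Other epithelial miRNAs were examined from a list of miR-205, miR-182, miR-183, miR-96, miR-31, miR-192, miR-194 and miR-215, which summed to between 543 and 2738 CPM, mostly miR-192 (mean 1733 CPM). For the male slope 7 of its arms were tested and 4 were called, against 35% of all arms, and with a term for the library set no arm of any list was called. miR-31-5p was higher with age (0.19 ± 0.06 log2 per week), miR-183-5p (-0.74 ± 0.20), miR-192-5p (-0.12 ± 0.04) and miR-194-1-5p (-0.10 ± 0.04) were lower, and miR-182-5p, miR-194-2-5p and miR-215-5p were not called. In edgeR's test their adjusted p values were 0.0213, 0.00604, 0.0387 and 0.0462 in that order, and the median slope of the list was -0.04 against -0.003 for all arms. None of its 7 arms was called for sex at 6 weeks, for sex over 6 to 8 weeks or for the female slope. The airway list (miR-34b, miR-34c, miR-449a and miR-449c) summed to between 8.39 and 72.7 CPM, and its only tested arm, miR-34c-5p, had a male slope of -0.04 ± 0.05. White blood cell miRNAs (miR-150, miR-142, miR-155 and miR-223, sense features) summed to between 477 and 1855 CPM, and in the male slope 2 of 3 tested arms were called, against 35% of all arms. Those were miR-150-5p (0.36 ± 0.07) and miR-155-5p (0.24 ± 0.04), both higher with age, while miR-223-3p was not called. miR-142 held 13 sense counts in all, but its features deposited as antisense passed the filter, with male slopes of -0.12 ± 0.10 for miR-142-3p antisense and 0.15 ± 0.15 for miR-142-5p antisense (edgeR adjusted p 0.349 and 0.448). Of 11 heart muscle arms tested, 2 were higher with age in males, miR-133a-1-3p (0.40 ± 0.07) and miR-133a-1-5p (0.30 ± 0.07), and miR-208b-3p was lower (-0.39 ± 0.05). The mature miR-133a is made from more than one locus, so its division between loci is uncertain. Neuronal miRNAs (miR-9, miR-124, miR-128 and miR-129) summed to between 111 and 394 CPM, with none of 4 tested arms called. miR-7, from the pancreas and neuroendocrine list, had one tested arm, miR-7-1-3p, which was higher with age in males (0.19 ± 0.06), and its part in the level of miR-375-3p was not tested. The arms most like miR-200b-3p over the 39 libraries were miR-486-5p antisense (rho 0.51), miR-106b-3p (0.50) and miR-451-5p (0.50). miR-451 and miR-486 are known from red blood cells.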

How the data were processed

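Small RNA of 39 heart libraries was analysed from 1 file per library of deposited counts, whole-number counts per mature miRNA arm that the authors made, per the labels, from TruSeq small RNA libraries. The submitters' processing notes name GRCm38, DESeq and edgeR. For the aligner, and for how reads from more than 1 locus were counted, nothing is given in the sources used here. A feature missing from a file was taken as 0. CPM is the count over the file total. Intervals (95% Wilson) and floors (3 counts) cover counting error only, since reads without molecular identifiers are not independent molecules.

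Groups came from sex and age in the labels. The members and the lists of other miRNAs were chosen with earlier results of these data known. Tests ran over all arms with 5 CPM or more in at least 5 fitted libraries, with edgeR 4.0.16 (quasi-likelihood, TMM factors) in R 4.3.3, Benjamini-Hochberg adjustment over all arms tested, and a call at an adjusted p under 0.05. Values with ± are log2 estimates with SE unless SD is written. Age was fitted in weeks, without the library of 16 weeks in the male slope. Alternatives used RLE factors, file totals, no filter, DESeq2 1.42.0, limma-voom (limma 3.58.1), the library set as a term, a replicate block, and libraries left out. Library sets came from Ward clustering of logit shares at 10 pairs of loci with 1 identical mature sequence and at least 500 counts per library. Correlations used log2(CPM + 1) and 100000 resamples, within sets for set deviations. All member features are named, with the 3 arms of 5 CPM or more most like each member of that level by Spearman's rho. The fits of miR-375-3p with no filter that leave out libraries or add the set, and the set deviations with TMM factors or without 5 libraries, were chosen after seeing the data. The scripts were tested on simulated data.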

Additional observations from a re-analysis of the deposited data

How the results depend on the processing

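No member arm was called for sex at 6 weeks or over 6 to 8 weeks under any alternative, and leaving out each library gave 0 called in both. For the male slope 1 member arm was called, 2 with file totals, with no filter and by DESeq2, and 0 with a term for the library set, and 1 to 2 when libraries were left out. For the female slope 0 were called, 1 by DESeq2, and 0 to 1 with libraries left out, and for sex by age 0 to 1. Signs turned with a term for the library set for miR-141-3p at 6 weeks (-0.21), over 6 to 8 weeks (-0.24) and in the male slope (0.20), and for miR-200b-3p in the female slope (-0.0537). With file totals they turned for miR-141-3p over 6 to 8 weeks (-0.0855), where the median of all arms moved to -0.13 from 0.02 with TMM, and in the female slope for miR-141-3p (-0.0038) and miR-203-3p (-0.00317). Leaving out each library moved miR-141-3p over 6 to 8 weeks between -0.0686 and 0.142. The cause was not tested. Among all arms the male slope called 121 and with the set term 0. The female slope called 10, with RLE factors 2, with no filter 1, with voom 25, with DESeq2 48 and with the set term 0. Sex by age called 7, with file totals 0, with no filter 1, with voom 1, without the 4 libraries 1, with DESeq2 18 and with the set term 99. Numbers of replicates gave no pairing of the samples of 6 weeks, with correlations of -0.18 to 0.21 between same-numbered libraries. Same-numbered libraries of 8 weeks had 0.44 in both pairs, values that are equal by construction with 2 libraries per sex. The pair of 7 weeks gave no value, so pairing at 7 and 8 weeks could not be judged. With the replicate block 0 member arms and 0 of all arms were called in either sex comparison, and miR-200b-3p was not tested at 6 weeks in the 12 libraries left, which without the block had 52 arms called. miR-203-3p averaged 165 CPM over the total without the most abundant arm, against 131 CPM. Of 21 correlations 4 were called by r, 7 as deviations from the set mean, 9 without the 2 farthest libraries, and 4 to 10 when each library was left out, with 10 without the shallow female library of 8 weeks replicate 2. More pairs were called by rho. miR-429-3p had 0.49 with miR-375-3p (adjusted permutation p 0.00769) and 0.44 with miR-203-3p (0.0204). miR-375-3p had 0.42 with miR-203-3p (0.0245) and -0.39 with miR-141-3p (0.0333). As deviations from the set mean these were 0.25 (0.253), 0.44 (0.0421), 0.30 (0.142) and 0.50 (0.0125). With TMM scaling over all libraries they were 0.41 (0.0356), 0.27 (0.179), 0.35 (0.0661) and -0.38 (0.0454). As set deviations with TMM scaling they were 0.0008 (0.997), 0.13 (0.761), 0.17 (0.761) and 0.40 (0.0894), and none was called. r of miR-200b-3p and miR-200c-3p was -0.0408 with TMM scaling and -0.0432 to 0.136 when each library was left out, and r of miR-200c-3p and miR-141-3p -0.20 as set deviations with TMM scaling. Depth limits the 5 low arms, whose lowest counts in a library were 7 for miR-200b-3p, 4 for miR-200c-3p, 1 for miR-200a-3p and miR-429-3p and 0 for miR-375-3p.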
